A study of Mus musculus with 2 samples.

Results

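The transcripts of 36 DNA damage sensing and repair genes were followed in mouse microglia, the resident macrophages of the brain. All 36 were found by symbol among the 32285 genes of the count matrix. They comprise 10 sensors and checkpoint genes, 6 genes of homologous recombination and DNA helicases, 5 of nonhomologous end joining, 4 of single-strand break repair, 3 of the Fanconi anaemia pathway, 5 of nucleotide excision repair, and Msh6, Polk and Rrm2b. The members were listed as a check for DNA damage in cells that hold an active Cre recombinase.

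The cells came from 12-week-old mice carrying the Cx3cr1CreERT2(Litt) allele on 1 chromosome, and this genotype was shared by every animal. The allele expresses a tamoxifen-dependent Cre recombinase from Cx3cr1, the gene of a chemokine receptor of microglia and other mononuclear phagocytes. The TAM mice had tamoxifen (TAM) for 4 weeks and their controls had the oil vehicle. Brain cells with CD11b and CD45 on their surface, and without Ly6G or CD206, were sorted, marked with antibody-borne oligonucleotides (hashtags TAM1 to TAM5 and Oil1 to Oil5) and run as 1 pool in droplets with 10x Genomics 3′ chemistry. Mice given TAM without the allele were not analysed here, so the effects of TAM and of Cre cannot be told apart. The labels do not state that a hashtag is 1 mouse, and p-values over hashtags measure only the spread between them.

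After demultiplexing and filtering, 7546 of 7903 single cells lay in 7 clusters where the defining microglial markers were detected, and these are called microglia-like. A hashtag held 587 to 904 such cells and 2959521 to 4800256 unique molecular identifiers (UMIs, each counting 1 captured molecule). Medians were 4886 to 5089 UMIs per cell. Microglial markers were also detected in a cluster of 305 cells that was left out under a rule on low depth (median 1502 UMIs). The sum of 14 microglial markers was 36929 to 37883 CPM (counts per 1000000 gene UMIs) in TAM hashtags and 38204 to 41059 CPM in oil hashtags, without overlap. Lists of other cell types overlapped between the treatments. Cd163, Ms4a7, Ly6c2, S100a8 and Ly6g had no UMI, but other markers of their lists did. UMIs were found for 5 of 7 markers of CNS-associated macrophages, 5 of 7 of monocytes and 1 of 6 of neutrophils. Mrc1, the gene of CD206, had 24 to 65 UMIs in TAM hashtags and 12 to 51 in oil hashtags. The monocyte list summed to 145 to 175 CPM in TAM hashtags and 150 to 222 CPM in oil hashtags. Immediate early genes, transcribed within minutes of a stimulus and also during tissue dissociation, had a mean log2 level of 3.97 to 4.97 in TAM hashtags and 5.07 to 6.88 in oil hashtags, and 18 of 22 tested fell. A cluster led by Fos and Egr1 held 29 TAM cells and 813 oil cells. Their part in the results below was not tested, apart from TAM fits with an immediate early term.

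Breaks in DNA are sensed by the kinases ATM and ATR, which signal through CHK1 and CHK2 and, via p53, induce Cdkn1a, the gene of the cell cycle inhibitor p21. Broken ends are joined directly by KU70, KU80, DNA-PKcs, XRCC4 and ligase IV in any cell cycle phase, or copied from the sister chromatid by BRCA1, BRCA2 and their partners after replication. Much of the damage response works by modifying proteins that are already present, so transcript levels are only a part of it. Genes of homologous recombination and the Fanconi anaemia pathway are transcribed mainly in cycling cells, under E2F and related factors, and resting microglia rarely divide.

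Upstream sequences are shown for 4 members named in the comparisons below. Zgrf1 was higher in TAM hashtags, Brca2 was higher in dividing cells, and Polk was higher in Cdkn1a-positive cells (at least 1 Cdkn1a UMI). Bard1 had a higher summed CPM in dividing cells, but it passed the count filter of that fit through dividing libraries only. The set of RefSeq promoters used here covered 28 of the 36 members (GRCm38.p6). Capitals mark the E2F letters TTTCCCGC or TTTGGCGC, the cell cycle homology region letters TTTGAA and the CCAAT box, on either strand. The 250 bases before the start are given 5′ to 3′ on the gene's strand, for Zgrf1 at chr3:127553239-127553488 (+), Bard1 at chr1:71102973-71103222 (−), Brca2 at chr5:150522371-150522620 (+) and Polk at chr13:96542580-96542829 (−).
Zgrf1: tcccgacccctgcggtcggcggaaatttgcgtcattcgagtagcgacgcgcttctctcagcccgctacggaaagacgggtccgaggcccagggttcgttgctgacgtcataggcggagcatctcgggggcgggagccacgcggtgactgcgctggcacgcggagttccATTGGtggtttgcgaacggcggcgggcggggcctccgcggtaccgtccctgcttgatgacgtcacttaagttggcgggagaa
Bard1: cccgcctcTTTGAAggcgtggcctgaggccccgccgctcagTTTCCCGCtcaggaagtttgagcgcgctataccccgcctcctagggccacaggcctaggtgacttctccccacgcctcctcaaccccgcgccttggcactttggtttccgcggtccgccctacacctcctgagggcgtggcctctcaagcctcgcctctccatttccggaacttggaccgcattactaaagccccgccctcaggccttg
Brca2: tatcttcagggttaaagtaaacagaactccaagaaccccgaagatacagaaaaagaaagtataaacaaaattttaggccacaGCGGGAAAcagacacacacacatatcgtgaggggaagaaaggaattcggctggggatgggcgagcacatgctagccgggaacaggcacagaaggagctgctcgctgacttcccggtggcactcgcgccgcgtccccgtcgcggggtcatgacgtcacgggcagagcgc
Polk: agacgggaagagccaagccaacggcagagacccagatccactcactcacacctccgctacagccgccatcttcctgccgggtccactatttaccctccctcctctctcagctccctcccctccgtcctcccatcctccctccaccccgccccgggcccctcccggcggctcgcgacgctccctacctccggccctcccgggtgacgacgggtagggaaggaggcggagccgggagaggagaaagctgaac
The Zgrf1 window held a CCAAT box, Bard1 an E2F match and the TTTGAA letters, Brca2 an E2F match, and Polk none of the 3. An E2F match was found in 5 of the 28 member promoters (17.9%) and in 1.30% of 32851 promoters of the same length. The CCAAT box was in 46.4% of member promoters and 33.8% of all, and TTTGAA in 7.14% of member promoters and 15.99% of all. The 5 members were Chek2, Mdc1, Brca2, Bard1 and Xrcc6. Chek2, Brca2 and Bard1 were called in the dividing fit below, and Mdc1 and Xrcc6 were not. Atr, Rnf168, Brca1, Blm, Zgrf1 and Xrcc1 were also called there but held no E2F match. Matches of 2 motifs shared letters only in Rnf8. These are letter matches, not measured binding sites, and the RefSeq start of Bard1 lies 174 bases from that of GENCODE and the one of Xrcc6 28534 bases.

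Zgrf1 rose in TAM hashtags, and it was the only member of 32 tested to pass the threshold. It lies at chr3:127553489-127618023 (GRCm38, plus strand) and encodes a DNA helicase that in human cells promotes recombination repair of interstrand crosslinks. TAM1 to TAM5 gave 36, 21, 34, 35 and 33 Zgrf1 UMIs, against 14, 5, 14, 17 and 10 in Oil1 to Oil5. As TMM-scaled CPM, where library sizes are set so that most genes do not differ, these were 8.47, 7.10, 7.01, 8.76 and 8.73 in TAM hashtags and 4.02, 1.57, 3.15, 4.45 and 2.49 in oil hashtags. Every TAM hashtag was above every oil hashtag, with means of 8.02 ± 0.883 and 3.14 ± 1.16 CPM (SD, n = 5 each). The log2 fold change was 1.33 ± 0.22 (SE) and the adjusted p was 0.0047 (edgeR quasi-likelihood test, Benjamini-Hochberg over all genes). CPM per hashtag and their means and SDs in the TAM comparison are TMM-scaled where not stated otherwise. The counts are low, and the gene's exons overlap those of Gm43729 on the other strand, which had 2 UMIs in TAM and 0 in oil hashtags.

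In the same fit 184 of 11172 genes were higher (1.65%) and 326 lower (2.92%) in TAM hashtags, 4.56% in all. With library size scaling these were 360 and 255 genes. Of the tested members 1 was higher and 0 were lower, so the count of called members is near this background. Their median log2 fold change was 0.09, against −0.00 over all genes, and 22 of 32 were positive. At an unadjusted p below 0.05 there were 6 members (edgeR) and 2169 of the 11172 genes, a share close to that of the members. By the same measure DESeq2 had 4 members and 1651 genes, and after adjustment Zgrf1 alone of the members and 4.43% of all genes. Chek1, Fanca, Fanci and Brca1 fell under the count filter, with 20, 36, 15 and 59 UMIs in TAM hashtags against 18, 9, 7 and 25 in oil hashtags.

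The sensors and checkpoint kinases did not pass the test in either direction (9 of 10 tested, median log2 fold change 0.10). Mdc1, a scaffold that binds phosphorylated H2AX at breaks, had 27.5, 24.4, 29.9, 27.3 and 31.2 CPM in TAM hashtags and 29.0, 25.4, 20.9, 22.2 and 20.7 CPM in oil hashtags. The groups overlapped through Oil1 and Oil2 (log2 fold change 0.26 ± 0.11, adjusted p 0.176, edgeR). Chek2, the effector kinase below ATM, had 25.7, 24.7, 21.6, 26.8 and 22.5 CPM in TAM hashtags and 12.3, 21.6, 15.5, 24.3 and 21.5 CPM in oil hashtags. Oil1 and Oil3 were lowest, and the difference of 0.35 ± 0.15 had an adjusted p of 0.203 (edgeR). Atm had 45.2, 40.3, 45.6, 45.8 and 44.4 CPM in TAM hashtags, and 37.9, 35.4, 43.4, 35.6 and 47.2 CPM in oil hashtags. Its highest value was in Oil5, and the log2 fold change was 0.15 ± 0.08 (adjusted p 0.358, edgeR). Atr, the kinase of single-stranded DNA, differed by 0.05 ± 0.08, and Trp53bp1, which protects ends from resection, by −0.01 ± 0.07.

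Among the homologous recombination genes, 1 of 5 tested rose, which was Zgrf1. Bard1, the partner of Brca1 in its ubiquitin ligase, had 14, 9, 25, 22 and 15 UMIs in TAM hashtags and 8, 15, 12, 6 and 7 in oil hashtags. TAM3 and TAM4 were highest and Oil2 lay within the TAM range (log2 fold change 0.74 ± 0.30, adjusted p 0.177, edgeR). Brca2, a mediator of homologous recombination, had 33, 22, 52, 47 and 31 UMIs in TAM hashtags and 17, 26, 28, 26 and 32 in oil hashtags. It was again highest in TAM3 and TAM4, with a log2 fold change of 0.44 ± 0.18 and an adjusted p of 0.191 (edgeR). Blm and Wrn, helicases of the RecQ family, differed by 0.27 ± 0.15 and −0.05 ± 0.06.

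The end joining genes, 5 of 5 tested, did not pass the test. Xrcc4, the scaffold of ligase IV, had 118.6, 118.1, 130.5, 121.4 and 132.5 CPM in TAM hashtags and 118.0, 109.5, 105.5, 120.9 and 118.0 CPM in oil hashtags. The groups overlapped, and the log2 fold change was 0.12 ± 0.05 (adjusted p 0.235, edgeR). Its exons overlap those of Tmem167 on the other strand. Polk, a polymerase that copies past bulky lesions, had 39.3, 28.4, 36.9, 42.3 and 39.2 CPM in TAM hashtags and 31.3, 36.4, 33.7, 30.3 and 35.4 CPM in oil hashtags. TAM2 was below all oil hashtags (log2 fold change 0.17 ± 0.09, adjusted p 0.363, edgeR). The members of single-strand break repair ran from −0.02 to 0.20 on the log2 scale and those of nucleotide excision repair from −0.13 to 0.16.

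The precision of the fit bounds differences in sums over all microglia-like cells, not changes confined to a small share of them. For 26 of the 31 members that were tested and not called, the approximate 95% interval of the log2 fold change (1.96 SE either way) lay within 0.5 of 0, and for 29 within 1. Summed over the members, the level was 1067 ± 27.4 CPM in TAM hashtags and 1013 ± 20.7 CPM in oil hashtags after TMM scaling (SD, n = 5 each), with ranges of 1042 to 1108 and 1000 to 1048 that overlapped. Per total UMIs the ranges were 1041 to 1118 and 982 to 1033, without overlap, so this depends on the scaling.

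**Figure D1:**
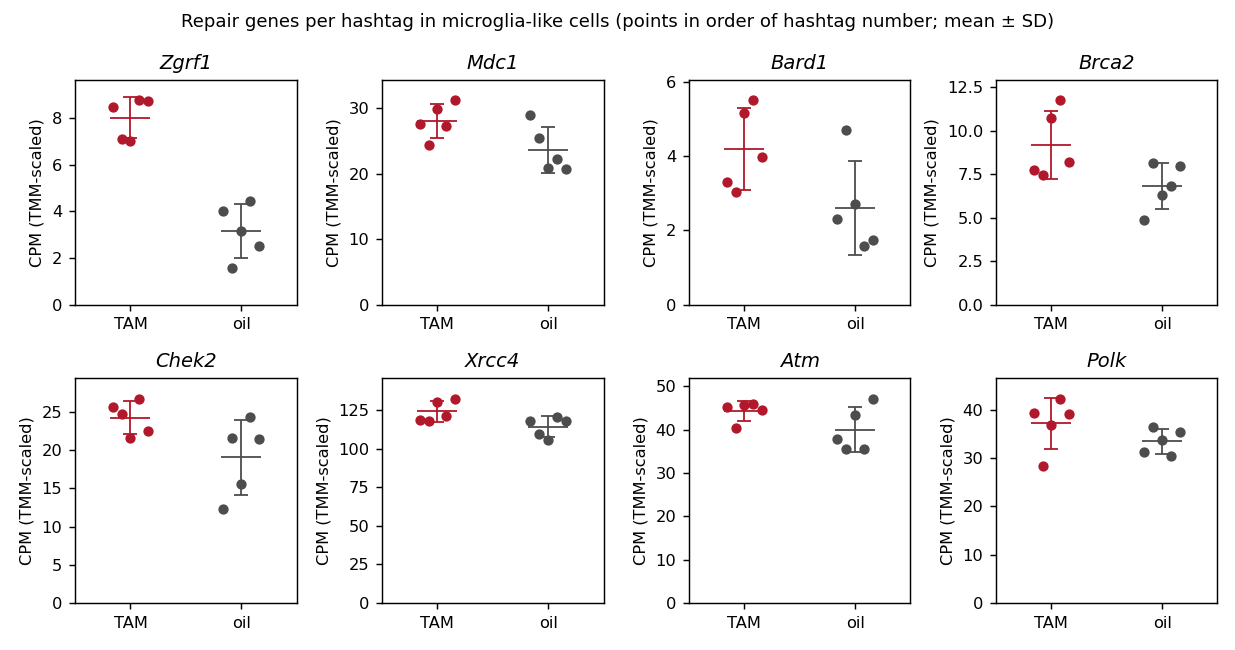
TMM-scaled CPM of the 8 members with the smallest p in the TAM contrast, 1 point per hashtag (TAM left, oil right), with the mean and SD of 5 hashtags. Only the Zgrf1 panel has no overlap, with 7.01 to 8.76 CPM in TAM hashtags and 1.57 to 4.45 CPM in oil hashtags.

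No overlap between the hashtags, with TAM above oil, was seen for Zgrf1 alone among the members, and for 240 of 11172 genes (2.15%). Over both directions 5.36% of genes did not overlap, and 3.21% lay below. The Zgrf1 difference was also measured within clusters, where only summed counts are given. Zgrf1 had 61 UMIs in 1610 TAM cells and 17 in 844 oil cells of the largest cluster, or 6.47 and 3.46 CPM. In the next largest it had 4.69 CPM in TAM cells and 2.34 CPM in oil cells, and in the one after that 8.30 CPM in TAM cells and 2.80 CPM in oil cells. In the cluster led by Fos and Egr1 it had 0 UMIs in the 29 TAM cells (95% Poisson interval 0 to 22.6 CPM). The 813 oil cells there had 13 UMIs, or 2.76 CPM, so these few TAM cells cannot show a difference. TAM and oil cells had 50.4 and 34.6 CPM in the cluster led by Mki67 (41 and 4 UMIs). They had 5.09 and 4.33 CPM in the one led by Ifit3 (2 and 1 UMIs), and 10.2 and 4.50 CPM in the one led by Spp1 (8 and 2 UMIs).

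Zgrf1 stayed higher in TAM hashtags in cells that were neither dividing nor Cdkn1a-positive. Dividing cells, defined by at least 3 summed UMIs of Mki67 and Top2a (a proliferation antigen and topoisomerase IIα), held 18.7% of all Zgrf1 UMIs and 1.06% of all gene UMIs. Without them TAM hashtags had 34, 16, 26, 21 and 25 Zgrf1 UMIs and oil hashtags 10, 5, 14, 17 and 10. Per total UMIs that is 5.47 to 8.05 CPM in TAM hashtags, above the 1.55 to 4.37 of oil hashtags. The log2 fold change was 1.08 ± 0.24 without dividing cells and 1.12 ± 0.26 without Cdkn1a-positive cells (adjusted p 0.0183 and 0.0230, edgeR). Without both it was 1.03 ± 0.28, with an adjusted p of 0.0485 (edgeR). In each of these 3 fits Zgrf1 was the only member called, where 3.9%, 3.91% and 3.94% of all genes were. Without Cdkn1a-positive cells TAM4, at 4.03 CPM, lay below Oil4 at 4.11.

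**Figure D2:**
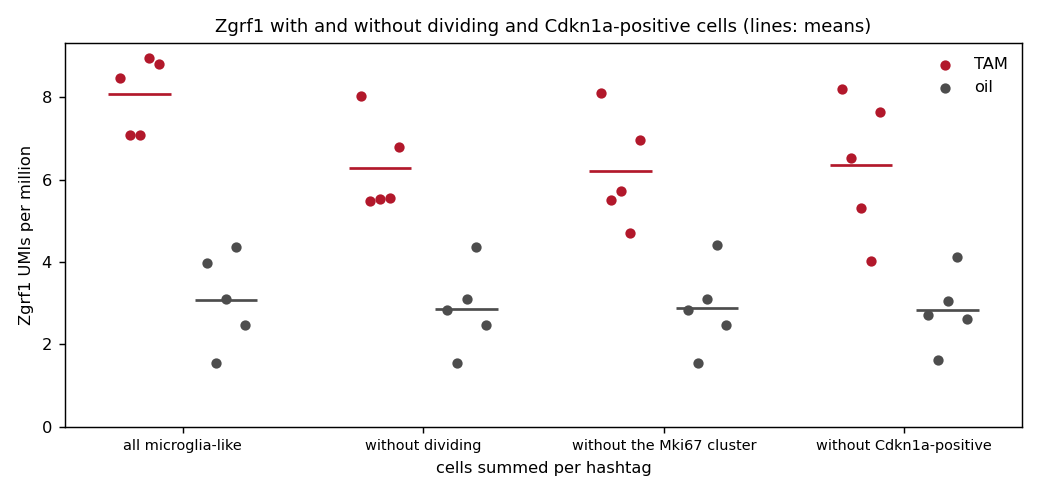
Zgrf1 CPM in each hashtag (points; TAM left, oil right in each pair; lines are means of 5), for all microglia-like cells and with dividing, Mki67-cluster or Cdkn1a-positive cells left out. Without dividing cells TAM hashtags lie at 5.47 to 8.05 and oil hashtags at 1.55 to 4.37.

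The Zgrf1 call held without any single hashtag, with log2 fold changes of 1.19 to 1.49 and adjusted p of 0.0041 to 0.0198 (edgeR). In female hashtags (3 TAM and 3 oil, sex read from Xist and Y-linked genes) it was 1.27 ± 0.29 and in male hashtags 1.46 ± 0.39 (adjusted p 0.0103 and 0.0809, edgeR). The test of the difference between the sexes gave an adjusted p of 0.984 for Zgrf1 and called 0 members (3 at an unadjusted p below 0.05, as 633 of 11172 genes, edgeR) and 0.0179% of all genes. Besides Zgrf1, Bard1 and Mdc1 passed in the female hashtags (5.38% of all genes did), at 1.26 ± 0.34 and 0.47 ± 0.12 (adjusted p 0.0360 and 0.0199, edgeR), against −0.12 ± 0.44 and −0.06 ± 0.15 in the males. Their difference between the sexes did not pass (adjusted p 0.836 and 0.816). With a covariate for each hashtag's immediate early level, which separates the treatments, Zgrf1 kept a log2 fold change of 1.32 ± 0.40 with an adjusted p of 0.170 (edgeR). With the hashtag's serial number, which also separates them, it was 1.24 ± 0.45 with an adjusted p of 0.322.

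Among 112 other repair genes found by symbol, 4 of 98 tested rose in TAM hashtags and 0 fell. Over all genes 1.65% were higher and 2.92% lower, 4.56% in all. Clspn, an adaptor of ATR signalling at forks, had 6.11 ± 3.05 CPM in TAM hashtags and 1.96 ± 1.16 CPM in oil hashtags (log2 fold change 1.70 ± 0.44, adjusted p 0.0350, edgeR). Brip1, a helicase that partners BRCA1, had 6.96 ± 2.60 and 2.75 ± 1.14 CPM in TAM and oil hashtags (1.34 ± 0.33, adjusted p 0.0270, edgeR). H2afx, the histone variant phosphorylated at breaks, had 15.4 ± 2.62 CPM in TAM hashtags and 9.85 ± 1.17 CPM in oil hashtags (0.65 ± 0.15, adjusted p 0.0176, edgeR; SD, n = 5 each). Hltf, which remodels stalled forks, differed by 0.21 ± 0.05 (adjusted p 0.0341, edgeR). Without dividing cells 1 of these 4 was called, which was Hltf, and the H2afx difference was −0.0078. Each of the 4 also lost its call without TAM3, TAM4 or TAM5 in turn, Hltf also without Oil1, Oil2 or Oil3, Brip1 without Oil3, and Clspn without Oil2, Oil3, Oil4 or Oil5.

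More TAM cells than oil cells carried Cdkn1a transcripts. At least 1 Cdkn1a UMI was found in 8.09, 6.64, 16.7, 15.6 and 12.2% of microglia-like cells of TAM1 to TAM5, against 5.29, 4.65, 5.57, 6.10 and 5.60% in Oil1 to Oil5. The means were 11.8 ± 4.45% and 5.44 ± 0.532% (SD, n = 5 each), without overlap, with an exact two-sided permutation p of 0.00794, the smallest that 252 regroupings allow (adjusted p 0.0159 over 2 shares). Dividing cells were 1.07 ± 0.559% of TAM and 0.217 ± 0.120% of oil hashtags (41 and 8 cells, exact permutation p 0.0238, adjusted p 0.0238), with overlap. Median depth differed little between hashtags, and the part of free RNA in these shares was not tested. Of the 49 dividing cells 39 were Cdkn1a-positive. Of 13 p53 targets tested in TAM hashtags, Cdkn1a and Ccng1 rose and Btg2 fell.

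The next comparison asked whether repair genes differ in the cells that carry Cdkn1a RNA. It set 669 Cdkn1a-positive cells (464 TAM, 205 oil) against 6877 Cdkn1a-negative cells, summed per hashtag with the hashtag as a block. Zgrf1, Blm and Polk were higher in positive cells, 3 of 30 members tested, and 0 were lower. Over all genes 280 of 9976 were higher (2.81%) and 129 lower (1.29%), 4.1% in all, with 323 and 73 under library size scaling. The median log2 fold change was 0.10 for the members and −0.00 for all genes, and 6 members and 1435 genes had an unadjusted p below 0.05. Positive cells had a median of 5182 UMIs and negative cells 4982. Since a UMI is more easily caught in a deeper cell, cells thinned to 3000 UMIs were also compared, where Blm and Polk passed at 1.32 ± 0.34 and 0.76 ± 0.19 and Zgrf1 fell under the count filter (1.34% of all genes called).

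Zgrf1 had 58 UMIs in positive cells and 161 in negative cells, or 15.7 and 4.57 CPM (log2 fold change 1.50 ± 0.32, adjusted p 9.5e-04, edgeR). It was higher in positive cells of TAM1 to TAM5, with 11.5, 14.5, 15.3, 31.5 and 16.7 against 8.28, 6.62, 5.36, 4.05 and 7.72 TMM-scaled CPM in negative cells. In oil hashtags it was higher in 3 of 5, and Oil2 and Oil5 had no UMI in positive cells. The count filter of this fit lay at 5.55 CPM, which Zgrf1 reached in negative cells of TAM1, TAM2 and TAM5 only. Zgrf1 thus entered the fit mainly through positive libraries, which favours a call in that direction and limits its weight. Blm, which dissolves recombination intermediates, had 81 UMIs in positive and 357 in negative cells, or 21.9 and 10.1 CPM (1.04 ± 0.25, adjusted p 0.0041, edgeR). It was higher in 8 of 10 hashtags. Without TAM4 both calls were lost, with adjusted p of 0.0824 for Zgrf1 and 0.0733 for Blm (edgeR). Zgrf1 was tested in only 8 of the 10 fits that each left out 1 hashtag. The Blm call was lost with DESeq2, at an adjusted p of 0.0515.

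Polk had 187 UMIs in positive and 1193 in negative cells, or 50.5 and 33.9 CPM (0.49 ± 0.13, adjusted p 0.0149, edgeR). Positive cells of TAM1 to TAM5 had 69.3, 29.0, 55.3, 51.5 and 54.4 TMM-scaled CPM, against 37.0, 28.7, 33.7, 41.4 and 37.7 in negative cells. Positive cells of Oil1 to Oil5 had 62.1, 42.3, 39.8, 28.8 and 42.8, against 29.8, 36.4, 33.7, 30.7 and 35.3 in negative cells. Positive cells were therefore higher in 9 of 10 hashtags, with Oil4 the exception. The call was lost without TAM1 or TAM3 (adjusted p 0.0684 and 0.0961, edgeR).

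Blm and Zgrf1 were not called without dividing cells. In Cdkn1a-positive cells that were not dividing, Blm had 7.74 CPM (95% Poisson interval 5.06 to 11.3) against 9.96 (8.94 to 11.1) in negative, non-dividing cells. Without dividing cells the Blm log2 fold change was −0.35 (adjusted p 0.849, edgeR). Zgrf1, at 7.15 (4.58 to 10.6) against 4.38 (3.72 to 5.13), fell under the count filter there. Polk stayed at 50.6 (43.3 to 58.8) against 33.9 (32.0 to 35.9), with a log2 fold change of 0.52 ± 0.14 and an adjusted p of 0.0280 (edgeR), the only member called (1.19% of all genes). Without the whole cluster led by Mki67 (124 TAM and 16 oil cells, of which 118 were Cdkn1a-positive), Polk had 0.40 ± 0.15 with an adjusted p of 0.330. In that fit 0 members passed (3 at an unadjusted p below 0.05, as 772 of 9827 genes, edgeR) and 0.641% of all genes did. The Poisson intervals cover counting error only. CPM summed over all hashtags, here and for Zgrf1 above, also carry the mix of treatments, for which they were not corrected. TAM cells were 431 of the 630 positive, non-dividing cells and 3341 of all 6877 negative cells.

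Other members did not pass in Cdkn1a-positive cells. Parp1, the sensor of single-strand breaks, had 74.3 and 58.9 CPM in positive and negative cells (0.31 ± 0.11, adjusted p 0.0904, edgeR), and was higher in all 5 oil and 3 of 5 TAM hashtags. Rrm2b, the p53-induced subunit of ribonucleotide reductase, had 34.9 in positive and 43.7 in negative cells (−0.36 ± 0.14, adjusted p 0.149, edgeR). Xrcc5, encoding KU80, had 24.6 and 30.1 (−0.39 ± 0.18, adjusted p 0.294, edgeR). Ddb2 and Xpc, which recognise ultraviolet lesions and are p53 targets in human cells, differed by −0.21 ± 0.18 and −0.22 ± 0.18. Atm, Atr and Xrcc4 differed by −0.08 ± 0.14, 0.22 ± 0.12 and −0.15 ± 0.09.

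Targets of p53 outside the repair members were tested in the same fit. Without Cdkn1a, which defined the classes, 6 of 12 tested rose and 0 fell, with a median log2 fold change of 0.90. They were Bbc3 and Bax, which promote apoptosis, at 1.70 ± 0.21 and 0.88 ± 0.10, Ccng1 at 1.18 ± 0.15, Trp53inp1 at 1.06 ± 0.15, Aen at 0.96 ± 0.19 and Mdm2, the ubiquitin ligase of p53, at 0.47 ± 0.10. All had adjusted p of 9.5e-04 or less (edgeR). Without dividing cells Mdm2 was the only one of the 6 to lose its call. Of 85 other repair genes tested 8 rose, led by H2afx at 2.18 ± 0.22, and without dividing cells 1 did (Mgmt, which removes alkyl groups from guanine).

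The Cdkn1a contrast was not shown to differ between the treatments. Its difference between TAM and oil hashtags was called for 0 of 33 members (4 at an unadjusted p below 0.05, as 635 genes, edgeR) and for 5 of 10616 genes (0.0471%). In TAM hashtags alone Blm, Polk and Zgrf1 passed (5.12% of all genes). In oil hashtags alone 0 members passed (3 at an unadjusted p below 0.05, as 671 of 9871 genes, edgeR; 0.263% of all genes), and Blm and Polk had log2 fold changes of 1.20 and 0.37.

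Blm, Brca2, Zgrf1, Rnf168, Atr and Chek2 were higher in dividing cells than in other microglia-like cells, and the summed CPM of Brca1, Bard1 and Fancd2 were higher there too. The fit used TAM2, TAM3, TAM4, TAM5 and Oil5, which held 3 or more dividing cells each (42 of the 49), again with the hashtag as a block. Of 33 members tested 11 rose and 0 fell, but Brca1, Bard1 and Fancd2 reached the count filter (6.56 CPM in 5 libraries) through the dividing libraries only, so that they had to differ and their rise in this fit is no evidence. Zgrf1 reached it in 4 dividing libraries and 1 other. Of the 30 further members tested 8 rose, while 755 of 9741 genes were higher (7.75%) and 829 lower (8.51%), 16.3% in all. The all-gene median log2 fold change was −0.17 with TMM and 0.00 with library size scaling, which called 983 higher and 522 lower and the same 11 members. With no count filter all 36 members were tested, 12 rose and Rrm2b fell (−1.65 ± 0.57, adjusted p 0.0416, edgeR), where 9.48% of 18656 genes were called and the all-gene median was −0.65. Rad50 and Xrcc1 were not called in that fit, and Chek1, Fanca and Fanci were. Dividing cells had a median of 8376 UMIs against 4989 in others, and 33 of 39 Cdkn1a-positive dividing cells were TAM cells. The microglial markers summed to 26620 CPM in dividing and 38838 CPM in other cells. Those of CNS-associated macrophages summed to 62.9 and 9.51 CPM, and those of monocytes to 111 and 176 CPM. Mrc1 had 16 UMIs in dividing and 8 in other cells of TAM4, and 0 to 4 in dividing cells of each remaining hashtag. The part of these marker differences in the calls was not tested.

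Brca1, which directs broken ends to recombination, had 55 UMIs in 49 dividing cells and 29 in 7497 other cells, or 133 and 0.753 CPM. In dividing cells of TAM2 to TAM5 and Oil5 it had 6, 6, 11, 13 and 3 UMIs, against 2, 3, 3, 10 and 2 in the other cells of these hashtags (log2 fold change with no filter 6.43 ± 0.52, adjusted p 2.4e-33, edgeR). Bard1 had 2, 13, 15, 10 and 1 UMIs in dividing cells and 7, 12, 7, 5 and 6 in others (with no filter 5.49 ± 0.47, adjusted p 1.1e-29, edgeR). Thus 65.5% of all Brca1 UMIs and 39.8% of all Bard1 UMIs lay in cells that held 1.06% of the RNA counted. Per total UMIs both genes were higher in dividing cells of all 5 hashtags.

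Fancd2, the Fanconi protein loaded on DNA at crosslinks, had 1, 6, 10, 1 and 7 UMIs in dividing cells of TAM2 to TAM5 and Oil5 and 4, 3, 10, 16 and 9 in others (with no filter 4.78 ± 0.55, adjusted p 3.9e-16, edgeR). Zgrf1 had 5, 8, 14, 8 and 0 UMIs in dividing cells and 16, 26, 21, 25 and 10 in others (3.99 ± 0.43, adjusted p 6.1e-19, edgeR), so that Oil5 did not share the direction. Blm had 2, 9, 16, 16 and 4 against 34, 43, 34, 44 and 35 UMIs (3.56 ± 0.38, adjusted p 1.1e-18, edgeR). Brca2 had 2, 5, 7, 5 and 1 against 20, 47, 40, 26 and 31 UMIs (2.52 ± 0.50, adjusted p 8.3e-06, edgeR). With so few dividing cells, single hashtags rest on 0 to 16 molecules of each of these 6 genes.

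Smaller differences were found among the sensors. Rnf168, which ubiquitinates histone H2A at breaks, had 5, 7, 15, 7 and 4 UMIs in dividing cells, or 74.0 to 151.5 CPM against 38.4 to 44.8 in others (1.20 ± 0.34, adjusted p 0.0043, edgeR). Atr and Chek2 had log2 fold changes of 1.11 ± 0.32 and 1.40 ± 0.44 (adjusted p 0.0052 and 0.0125, edgeR). Rad50, of the MRE11 complex, had 0.81 ± 0.30 (adjusted p 0.0431, edgeR) and Xrcc1, the scaffold of single-strand break repair, 1.49 ± 0.51 (adjusted p 0.0274, edgeR). Rad50 and Xrcc1 lost their calls without TAM3, TAM4 or TAM5, Rad50 also without TAM2, Chek2 without TAM3 or TAM5, Rnf168 without TAM4 and Atr without TAM5. Without TAM5, 6 members and 12.4% of all genes passed, and without Oil5, 13 members and 18.1% did.

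None of the 5 end joining and 5 nucleotide excision repair genes passed in dividing cells, which at 16.3% of all genes called is not far from the background. CPM here are summed over all hashtags per total UMIs, whereas the log2 fold changes come from TMM-scaled libraries of 5 hashtags, so the signs can differ. Xrcc5 had 4 UMIs in dividing cells, or 9.68 CPM (95% Poisson interval 2.64 to 24.8), against 29.8 (28.1 to 31.5) in others, a log2 fold change of −1.60 ± 0.71 (adjusted p 0.115, edgeR). Xrcc4, Xrcc6 and Prkdc differed by −0.08 ± 0.27, 0.76 ± 0.53 and −0.25 ± 0.37. Rrm2b had 16.9 (6.81 to 34.9) CPM in dividing cells against 43.2 (41.1 to 45.3) in others (−1.54 ± 0.58, adjusted p 0.0508, edgeR). Polk, raised in Cdkn1a-positive cells, had 43.6 (25.8 to 68.9) against 35.4 (33.5 to 37.3), a log2 fold change of −0.13 ± 0.48.

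**Figure D3:**
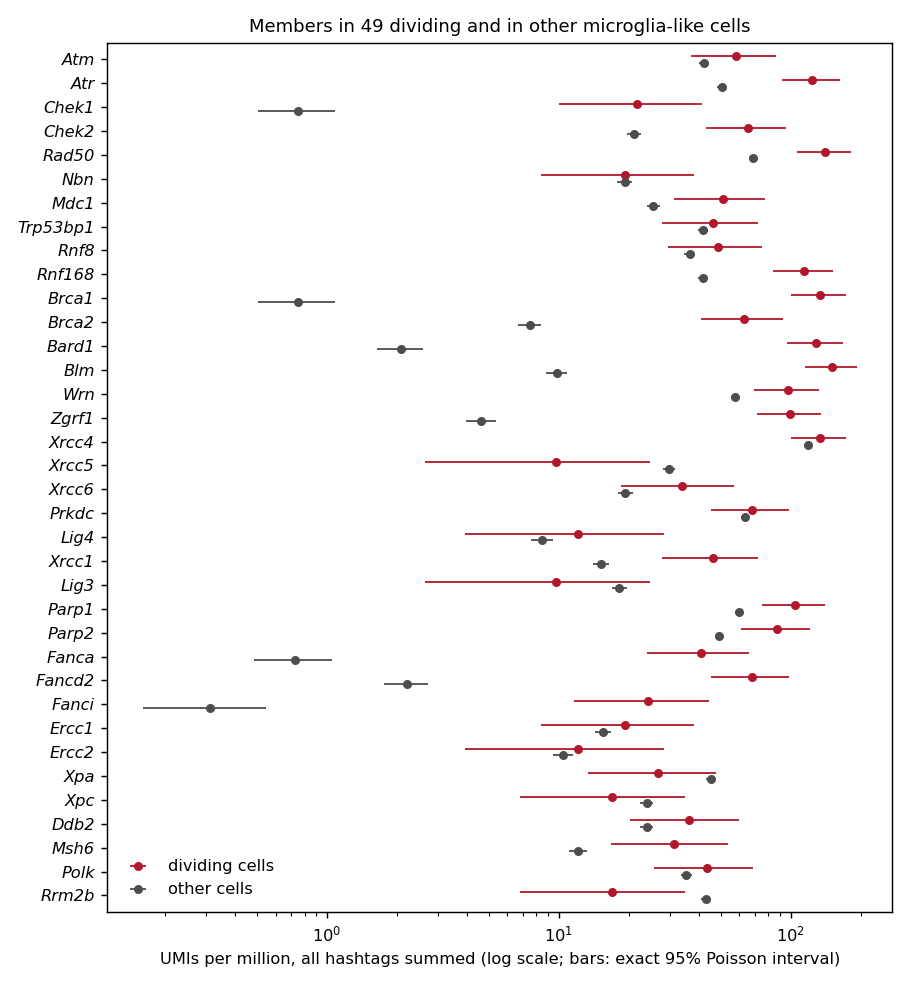
CPM of each member in 49 dividing cells (upper, red) and 7497 other microglia-like cells (lower, grey), summed over all hashtags, on a log axis with exact 95% Poisson intervals. Brca1 stands at 133 in dividing and 0.753 in other cells, while Xrcc4 stands at 133 and 119, although its fitted log2 fold change over 5 hashtags is −0.08.

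Chek1, Fanca and Fanci were left out by the count filter. Their summed UMIs were 9, 17 and 10 in dividing cells and 29, 28 and 12 in the others, or 21.8, 41.2 and 24.2 CPM against 0.753, 0.727 and 0.312. Of 97 other repair genes tested 13 passed the filter through the dividing libraries only, and of the remaining 84, 17 rose and 0 fell. Of the p53 targets, Cdkn1a had a log2 fold change of 4.12 ± 0.18 in dividing cells (adjusted p 5.3e-111, edgeR), and 6 of the 12 others rose.

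Taking the dividing class more widely changed the count of members. At least 1 UMI of Mki67 or Top2a gave 4 members higher (Blm, Brca1, Brca2 and Chek2) and Xrcc5 lower, where 13.8% of all genes were called and Bard1, Fancd2 and Zgrf1 fell under the count filter. Cells thinned to 3000 UMIs gave 5 higher (8.61% of all genes). The whole cluster led by Mki67 gave 4 (Blm, Brca2, Chek2 and Zgrf1; 10.1% of all genes), and Brca1, Bard1 and Fancd2 fell under the filter there. Blm was in each of these 3 sets.

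**Figure D4:**
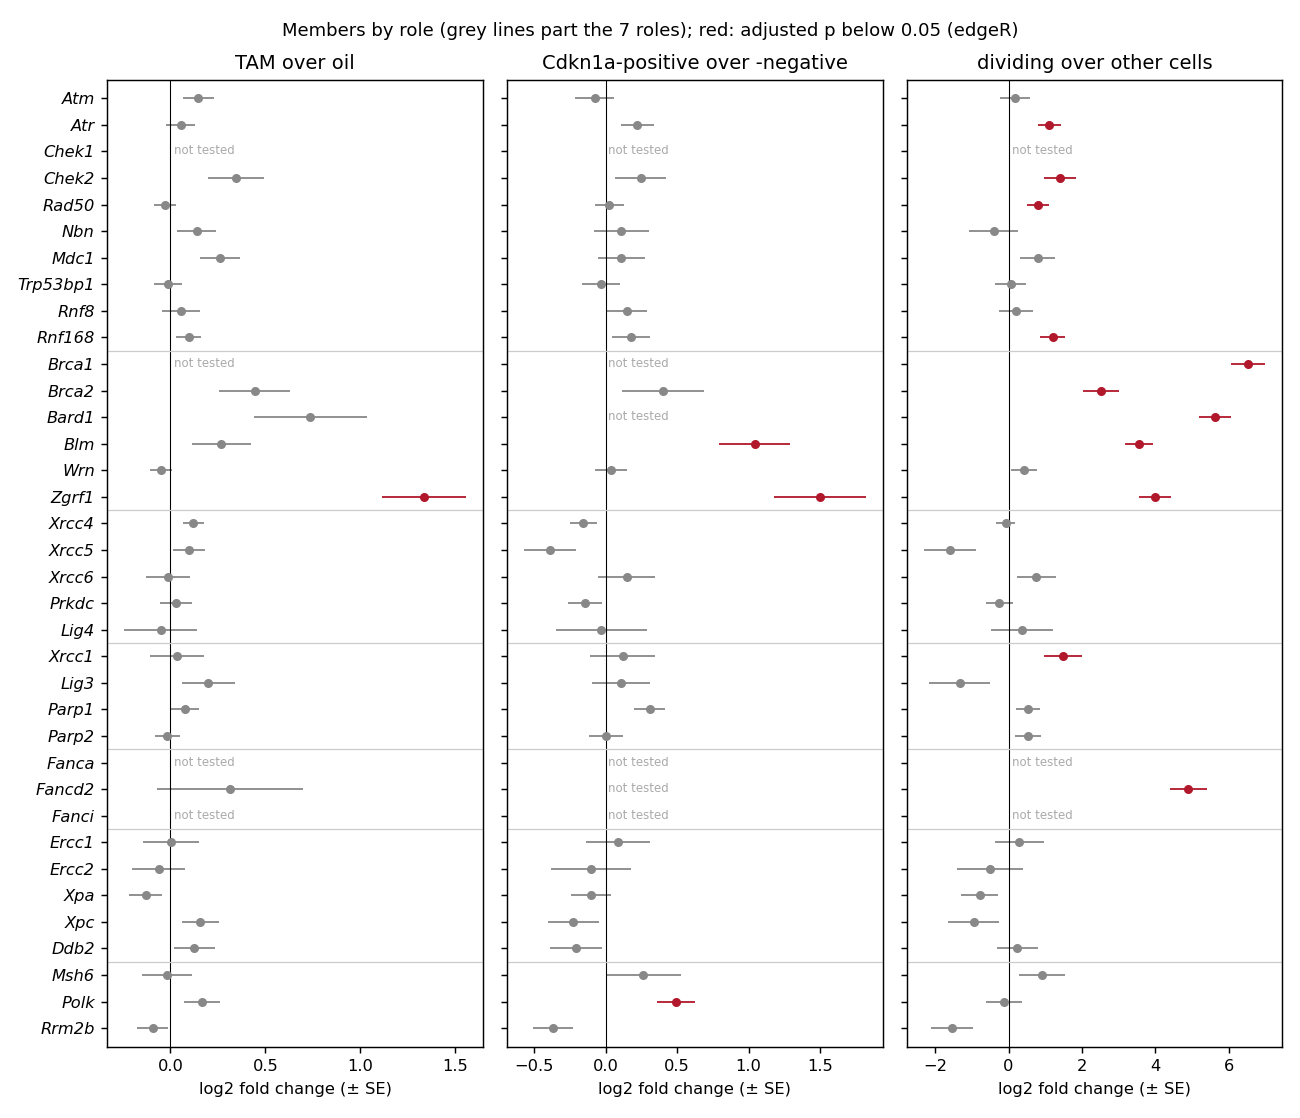
Log2 fold change with SE of every tested member in the 3 contrasts (left, TAM over oil; middle, Cdkn1a-positive over Cdkn1a-negative; right, dividing over other cells), ordered by role and with a separate axis per panel; red points pass an adjusted p of 0.05. There are 1, 3 and 11 red points, of which Brca1, Bard1 and Fancd2 in the right panel passed the count filter through dividing libraries only, and Zgrf1 is red in all 3 panels.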

How the data were processed

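Droplet RNA and hashtag libraries of 1 pool were measured. The authors deposited raw UMI counts per gene and barcode, for which the submitters' processing notes name Cell Ranger 7.0.0 and mm10. The sources used here do not give the annotation, the strand setting or how barcodes were selected. Overlapping genes on the other strand, present for 16 members, are therefore uncertain.

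Hashtags were assigned with HTODemux (Seurat 5.3.0, positive quantile 0.99), giving 8055 singlets, 1737 barcodes with several hashtags and 183 with none. Doublets of 1 hashtag could not be removed. Cells needed 500 genes, 1000 UMIs and at most 10% mitochondrial UMIs, and were clustered in scanpy 1.11.5 (2000 variable genes, 30 components, 15 neighbours, Leiden resolution 0.5). Clusters were named from fixed markers; 2 clusters stayed unnamed and were left out, 1 of them with a median of 1502 UMIs.

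Counts were summed per hashtag, or per hashtag and class, and tested with edgeR 4.0.16 (TMM, filterByExpr, quasi-likelihood F test, Benjamini-Hochberg over all genes at 0.05), with the hashtag as a block between classes; DESeq2 1.42.0 was an alternative. SE is the log2 fold change divided by the square root of F, an approximation. CPM are per total gene UMIs unless called TMM-scaled. The fits were tested on simulated counts. Every member may be named; values per hashtag are given for up to 8 members per contrast with the smallest p. The members and gene lists were chosen with earlier results of these data known. In bulk sums per hashtag, more cells with a transcript and more transcript per cell cannot be told apart. Motifs were searched in RefSeq promoters.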

Additional observations from a re-analysis of the deposited data

Results flagged for a closer look

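Atm in TAM2 stood apart from the other TAM hashtags, with 40.3 CPM against 44.4 to 45.8 CPM, a gap larger than a group of 5 usually shows. TAM2 was also the smallest sum, with 2959521 UMIs, and chance alone marks about 1 in 20 groups. Of 38 groups screened in this way, 1 was flagged.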

How the results depend on the processing

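Of the recomputed values 606 kept direction and call, 71 lost the call, 6 gained it and 12 turned. Many of the 606 belong to results that had no call to lose, and settings where a gene left the test are not counted. In dividing cells Rad50 lost its call in 9 settings and kept it in 7, and Xrcc1 lost and kept it in 8 each. In the TAM contrast Clspn lost its call in 9 and kept it in 11, Hltf in 9 and 15, and Zgrf1 in 2 and 22. With a term for the immediate early level, 0 members (3 of 32 at an unadjusted p below 0.05), 0 other repair genes and 68 genes in all passed in the TAM contrast (edgeR), and with the hashtag's serial number 0 members (2 of 32), 0 other repair genes and 37 genes. Both covariates separate the treatments. With no count filter 2 members, 7 other repair genes and 843 of 20088 genes passed, and with sex as a covariate 872 of 11172 genes did. Leaving out 1 hashtag each time gave 1 to 1 members, 0 to 7 other repair genes and 249 to 656 genes, against 1, 4 and 510.

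The number of other repair genes was 1 without dividing cells, without Cdkn1a-positive cells, without both, and without the Mki67 cluster, which was added after seeing the data. In the Cdkn1a contrast 3 members became 7 with no filter and 0 in oil hashtags alone. They became 1 without dividing cells, 0 without the Mki67 cluster and 1 to 3 without single hashtags. Polk was lost without TAM1 or TAM3, and Blm and Zgrf1 without TAM4. Zgrf1 was tested in 8 of the 10 fits without a single hashtag. The 409 of 9976 genes called in that contrast became 264 with DESeq2, 117 in thinned cells and 118 without dividing cells. They became 63 without the Mki67 cluster, 26 in oil hashtags and 884 of 20088 with no filter. In the dividing contrast 11 members became 4 with the Mki67 cluster, where Brca1, Bard1 and Fancd2 left the test, 5 at 1 UMI, where Bard1, Fancd2 and Zgrf1 left it, 5 in thinned cells and 6 to 13 without single hashtags, and 1584 genes became 775 in thinned cells and 987 with the Mki67 cluster. That contrast was not run without Cdkn1a-positive cells, since no hashtag then kept 3 dividing cells.

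The 12 turned directions follow. In the TAM contrast Brca2 became −0.013 and Atm −0.038 with the serial number and −0.051 and −0.030 with the immediate early level, Xrcc4 −0.0041, Rad51ap1 −0.13 and Rrm1 −0.085 with the serial number, and H2afx −0.0078 without dividing cells and −0.0030 without the Mki67 cluster. In the Cdkn1a contrast Blm became −0.35 and −0.38 in the same order, and Xrcc5 0.050 in thinned cells. The causes of these changes were not tested.

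The number in the hashtag names was not taken to pair the samples, since the labels do not say what it marks and 1 of 5 correlations was under 0.1. It carries sex, as numbers 1 and 2 were male and 3 to 5 female in both treatments by Xist and Y-linked genes. The deviations of same-numbered hashtags correlated at 0.341, 0.174, 0.066, 0.133 and 0.121, and TAM1 and TAM2 alone correlated best with their own number. With it as a replicate block 870 of 11172 genes and 1 member passed. Without the hashtag as a block between classes, 3 members and 336 of 9976 genes passed in the Cdkn1a contrast. In the dividing contrast 12 members and 2016 of 9741 genes did. Depth limits the low members: 49 dividing cells cannot resolve genes with a few UMIs.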
